A study of Rattus norvegicus with 16 samples.

Results

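Respiratory chain genes of the nucleus were followed in rat cortex over 48 h after a fluid percussion injury. The members are the genes whose only symbol in the array annotation begins with Nduf, Uqcr, Atp5 or Cox4 to Cox8, together with Sdha, Sdhb, Sdhc and Sdhd. They numbered 86 of the 14218 genes measured and came from 96 probe sets, the groups of short probes that report 1 transcript. Of the members, 36 were filed under complex I by their Nduf symbols, 6 were assembly factors of complex I, 4 belonged to complex II, 7 to complex III, 17 to complex IV and 16 to the ATP synthase. Ndufa4, now usually placed with complex IV, stayed with complex I by its symbol, as did its relative Ndufa4l2. The complex IV group includes 1 pseudogene, Cox6c-ps1. Cytochrome c (Cycs) was sought but is not a member, because its probe sets carry several symbols.

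The respiratory chain sits in the inner mitochondrial membrane and passes electrons from NADH (complex I) and succinate (complex II) through complex III and cytochrome c to oxygen at complex IV. Complexes I, III and IV pump protons, and the ATP synthase, complex V, uses that gradient to make ATP. Neurons draw most of their ATP from this pathway, and impaired mitochondrial respiration is a known feature of contused cortex. The genes measured here are nuclear, so the subunits encoded by mitochondrial DNA are outside the set.

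All animals were male Wistar rats, 8 weeks old, with a craniectomy over the right parietal cortex and an adapter fixed to the skull 48 h before the procedure. Injured rats then received a moderate lateral fluid percussion (3.3 ± 0.3 atm), a pressure pulse against the dura, and shams were prepared in the same way without it. Brains were perfused with saline 3, 6, 12 or 48 h later, and polyadenylated RNA from the cortex of the contusion area was hybridized to 1 array per sample. There were 3 injured arrays and 1 sham array at each time, 16 in all. The shams of 3, 6 and 12 h form 1 control group of 3 arrays in the study's design, here called the early shams and numbered 1 to 3 in that order of time. The 48 h sham is a separate control whose own spread was not measured. Each array was treated as a replicate, and since the labels do not state that each came from another animal, p-values measure the spread between arrays. The controls carried the craniectomy too, so differences of injured from sham arrays come on top of that surgery. Against the early shams, the 48 h injured arrays also differ in time after the procedure, which cannot be told apart there from the percussion. Steps between injured times, and the 48 h sham against the early shams, compare times and not percussion against sham.

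Values are log2 intensities with each probe set set to 0 at its median over the 16 arrays, so differences between arrays can be read, but neither the level of a gene nor whether it is detected. For the same reason the labelled tissue could not be checked against the presence of cortical markers. The number of arrays, not a read depth, limits the precision: the standard error of a member's difference between 2 groups of 3 arrays had a median of 0.077 on the log2 scale, and ranged from 0.055 to 0.325. Injured 12 h array 2 stood apart, with polyadenylated spike controls averaging -1.69 against -0.18 to 0.50 in the other arrays, and with a wide spread over genes (SD 0.372). Injured 48 h array 2 had a spread of 0.387. In bulk tissue, fewer cells of a type and less RNA per cell cannot be told apart.

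Respiratory chain genes leaned below the early shams by small amounts, most widely at 12 h, and the size at 3, 6 and 48 h depended on single arrays. The median difference over the 86 genes was -0.027 at 3 h, -0.060 at 6 h, -0.070 at 12 h and -0.057 at 48 h, where the median over all 14218 genes was -0.010, -0.022, -0.017 and -0.010. The 12 h median is a difference of -4.74% in signal. Negative differences were found for 57 members at 3 h (66.3%, against 53.7% of all genes), 59 at 6 h (68.6%, against 56.6%) and 74 at 12 h (86.0%, against 53.8%). At 48 h they were 57 again against the early shams (66.3%, against 52.2%) and 69 against the 48 h sham (80.2%, against 50.2%), with a median of -0.092 in the latter. Without early sham 1, whose median over members was the highest of the early shams, the 3 h median was -0.006 with 44 of 86 members negative, the 6 h median -0.037 with 52, and the 48 h median -0.031 with 51. The 6 h median was -0.031 with 51 negative without injured 6 h array 1, and the 48 h median -0.033 with 56 negative without injured 48 h array 2. The 4 time points against the early shams share those 3 arrays, so their shares are not independent of each other. The 48 h sham itself lay on the other side, with a median of 0.040 and 29 of 86 members (33.7%) below the early shams, against 50.7% of all genes.

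**Figure D1:**
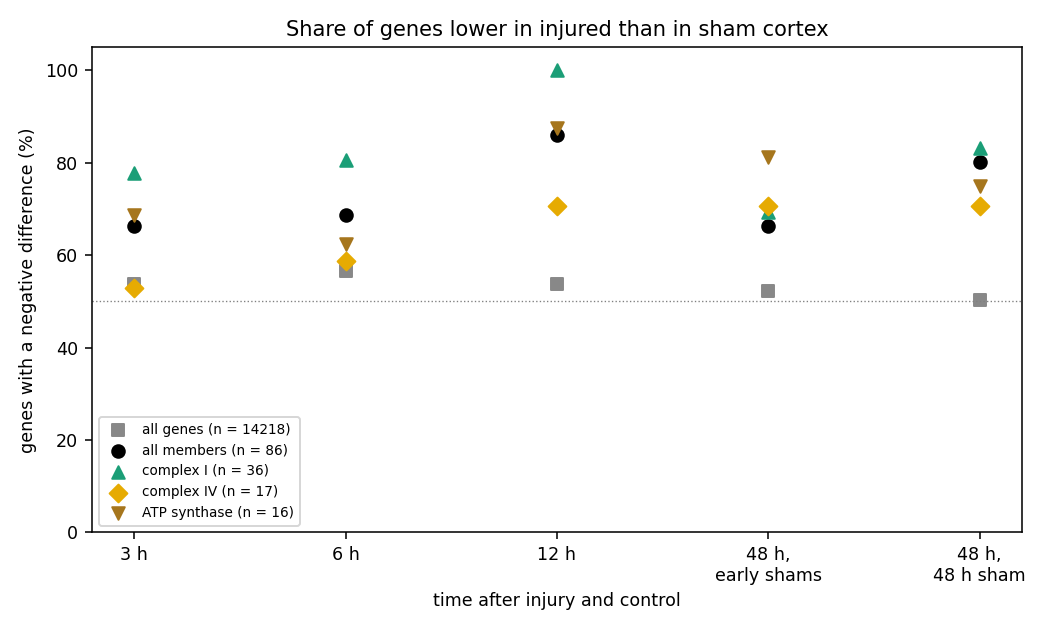
Percent of genes with a negative log2 difference (y axis) at 3, 6, 12 and 48 h against the early shams and at 48 h against the 48 h sham (x axis), for all 14218 genes, all 86 members, complex I, complex IV and the ATP synthase. All genes lie between 50.2% and 56.6%; all 36 complex I genes are negative at 12 h.

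No single member passed the test at 3, 6 or 12 h (limma with Benjamini-Hochberg adjustment over all genes, adjusted p under 0.05). The share of all genes that did was 0.584% at 3 h, 2.67% at 6 h and 4.87% at 12 h. At an unadjusted p under 0.05 there were 2 members at 3 h, 9 at 6 h and 9 at 12 h; that is 2.33%, 10.5% and 10.5% of them, against 9.55%, 14.3% and 20.5% of all genes. The differences of members were small: at 12 h, 6 of 86 differed by over 0.2 in either direction and 0 by over 0.5, beside 3988 and 887 of the 14218 genes. With the injured groups of 3, 6 and 12 h averaged, 69 members (80.2%, against 56.0% of all genes) were negative and again none was called, against 2.71% of all genes, with 4 members (4.65%, against 13.8% of all genes) at an unadjusted p under 0.05. The steps from 3 to 6 h and from 6 to 12 h held no called member either, beside 1.2% and 0.0141% of all genes.

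Counting arrays gave a similar picture. All 3 injured arrays lay below all 3 early shams for 10 members at 3 h, 16 at 6 h, 23 at 12 h and 26 at 48 h. Of all genes, 10.3%, 12.8%, 11.0% and 14.7% did so. The opposite order, all injured arrays above all shams, was met by 1, 5, 4 and 4 members, beside 7.49%, 10.8%, 10.5% and 14.7% of all genes. The 3 h count below is near its background, and the 12 and 48 h counts are above theirs.

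The median over members in each array, taken from the mean of the early shams, was 0.035, -0.023 and -0.012 in early shams 1 to 3. It was -0.027, -0.033 and -0.012 in the 3 h arrays, -0.107, -0.050 and -0.012 in the 6 h arrays, and -0.123, -0.054 and -0.063 in the 12 h arrays. The 48 h arrays had -0.048, -0.087 and -0.040, and the 48 h sham 0.040. All 12 h and 48 h arrays lay below every early sham, whereas the 3 h and 6 h arrays reached into their range. Injured 6 h array 1 and injured 12 h array 1 were the lowest. Leaving out the array with the low spike controls kept the 12 h direction: without injured 12 h array 2 the median was -0.092 with 73 members negative, and without array 1 it was -0.051 with 65 negative.

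**Figure D2:**
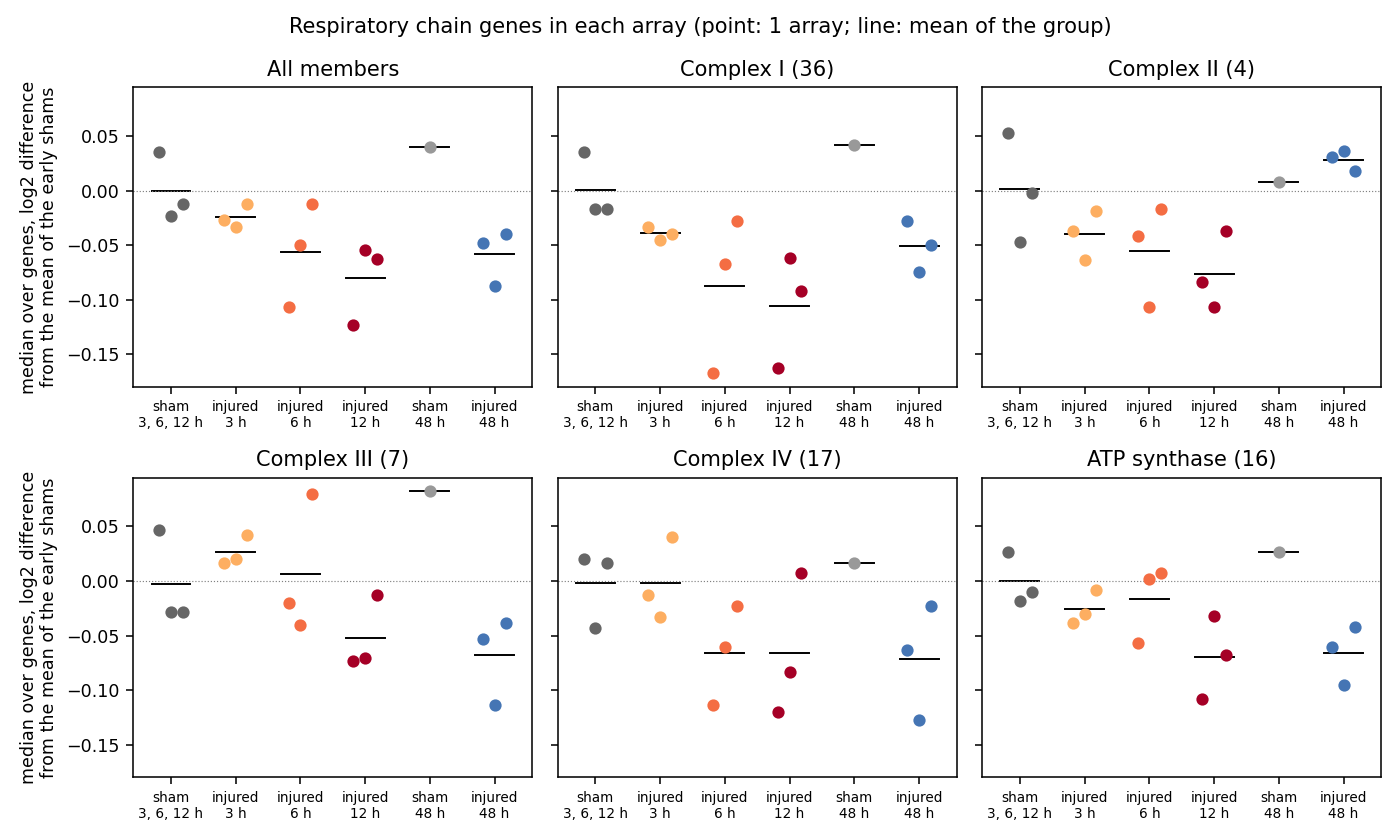
Median log2 difference from the mean of the early shams (y axis) in each of the 16 arrays (points) by group (x axis), for all 86 members and for complexes I to IV and the ATP synthase, with the mean of each group as a line. For all members and for complex I every 12 h and 48 h array sits below all 3 early shams.

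Complex I, the entry point for NADH, was negative for every gene at 12 h. Its 36 genes had a median of -0.042 at 3 h, -0.092 at 6 h and -0.103 at 12 h, and 28, 29 and all 36 of them were negative. The 12 h differences ran from -0.217 to -0.017, and no gene was called. All 12 h arrays were below all early shams for 10 of the 36 and above for 0, beside 11.0% and 10.5% of all genes. At 48 h the median was -0.055 against the early shams, with 25 of 36 negative, and -0.110 against the 48 h sham, with 30 of 36 negative. In single arrays, the number of complex I genes below the mean of the early shams was 35, 23 and 30 at 12 h, and 5, 26 and 23 in the early shams themselves. The count of 36 depended on the arrays used: it was 31 without injured 12 h array 1, 34 without array 3, and 31 against the 12 h sham alone. Without early sham 1 the complex I counts at 3 and 48 h were 21 each.

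Among the catalytic core of complex I, Ndufs1, the large iron-sulfur subunit, had 0.07, 0.11 and -0.01 in the early shams, 0.00, 0.00 and 0.01 at 3 h, -0.01, -0.05 and -0.02 at 6 h, and -0.06, -0.28 and -0.12 at 12 h. The 48 h arrays had 0.06, 0.06 and 0.08 and the 48 h sham 0.07. The 12 h arrays lay below every other array, and the 48 h arrays lay within the range of the early shams. The 12 h difference of -0.21 ± 0.07 (SE, n = 3 against 3) missed the threshold (limma adjusted p = 0.0878; called only without injured 12 h array 1), while the rise from 12 to 48 h, 0.22 ± 0.07, passed it (limma adjusted p = 0.0381). Ndufv1, the flavoprotein subunit that accepts electrons from NADH, differed by -0.10, -0.16 and -0.07 at 3, 6 and 12 h and by -0.17 at 48 h, with no call. Ndufv3, an accessory subunit next to it, had the lowest mean over 3, 6 and 12 h of the complex (-0.19), and early sham 1 alone (0.315) lay far above the other shams (-0.075 and 0.08). Its 2 probe sets were unlike in size. The first differed by -0.02, -0.143 and -0.087 at 3, 6 and 12 h, and the second by -0.227, -0.393 and -0.27.

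Ndufb2 and Ndufb4 are accessory subunits of the membrane arm. Ndufb2 had the largest negative 12 h difference of the complex, -0.22 ± 0.07 (SE), with -0.19, -0.15 and -0.12 in the 12 h arrays and 0.18, 0.02 and -0.01 in the early shams (limma adjusted p = 0.117). Ndufb4 had 0.03, 0.01 and -0.07 in the early shams and 0.06, -0.02 and 0.03 at 3 h. It then had -0.08, -0.01 and -0.02 at 6 h, -0.17, -0.31 and -0.15 at 12 h, and 0.14, 0.05 and 0.04 at 48 h, beside 0.12 in the 48 h sham. Its 12 h arrays lay below every other array. The 12 h difference was -0.20 ± 0.07 (SE, limma adjusted p = 0.10), and Ndufb4 rose from 12 to 48 h by 0.29 ± 0.07 (limma adjusted p = 0.0104), its call lost only when the model held no other groups (adjusted p = 0.125). Ndufb1, at the other end, averaged 0.024 over 3, 6 and 12 h.

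Ndufb9 was the only complex I gene called against sham. It had 0.07, 0.01 and 0.10 in the early shams and -0.20, -0.23 and -0.12 at 48 h, with -0.02 in the 48 h sham, and fell by 0.24 ± 0.07 (SE, limma adjusted p = 0.046). The groups did not overlap, but the call held in 5 of 13 alternative analyses, and was lost without any 1 of the early shams, without injured 48 h array 1 and without array 2 (adjusted p up to 0.171). Ndufs3, a core subunit, stood just outside the threshold with -0.25 ± 0.07 (limma adjusted p = 0.0502). Ndufa4 had -0.04, 0.07, -0.08 and -0.12 at 3, 6, 12 and 48 h. Its paralogue Ndufa4l2, known as a hypoxia-inducible gene, had -0.14, -0.09 and -0.08 at 12 h and 0.12, 0.20 and 0.36 at 48 h, where the early shams spread from -0.18 to 0.26. The step of 0.33 ± 0.10 (SE, limma adjusted p = 0.0438) passed the test, whereas neither time differed from the early shams beyond it.

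The assembly factors of complex I, which help build the enzyme but are not part of it, were split at 12 h: 3 of 6 were negative and their median was 0.040. Ndufaf4 had the largest negative difference among the called members. Its values were -0.08, -0.03 and 0.07 in the early shams, -0.17, -0.13 and 0.04 at 3 h, 0.08, 0.14 and 0.23 at 6 h, and 0.03, 0.35 and 0.15 at 12 h. The 48 h arrays then held -0.39, -0.45 and -0.59, below every other array, and the 48 h sham -0.09. Ndufaf4 fell by 0.46 ± 0.09 at 48 h against the early shams (SE, -27.5% in signal, limma adjusted p = 0.00798) and by 0.65 ± 0.09 from 12 to 48 h (limma adjusted p = 0.000702), and both calls held in every alternative analysis run. Against the 48 h sham alone it differed by -0.39 ± 0.13 (limma adjusted p = 0.508). Ndufaf1 had -0.35, -0.34 and -0.20 at 3 h, below all early shams (-0.03, -0.17 and 0.00), and 0.01, 0.41 and 0.03 at 12 h, above them, with no call. Ndufaf3 (-0.13) and Ndufaf7 (0.11) marked the ends of the group in the mean over 3, 6 and 12 h.

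**Figure D3:**
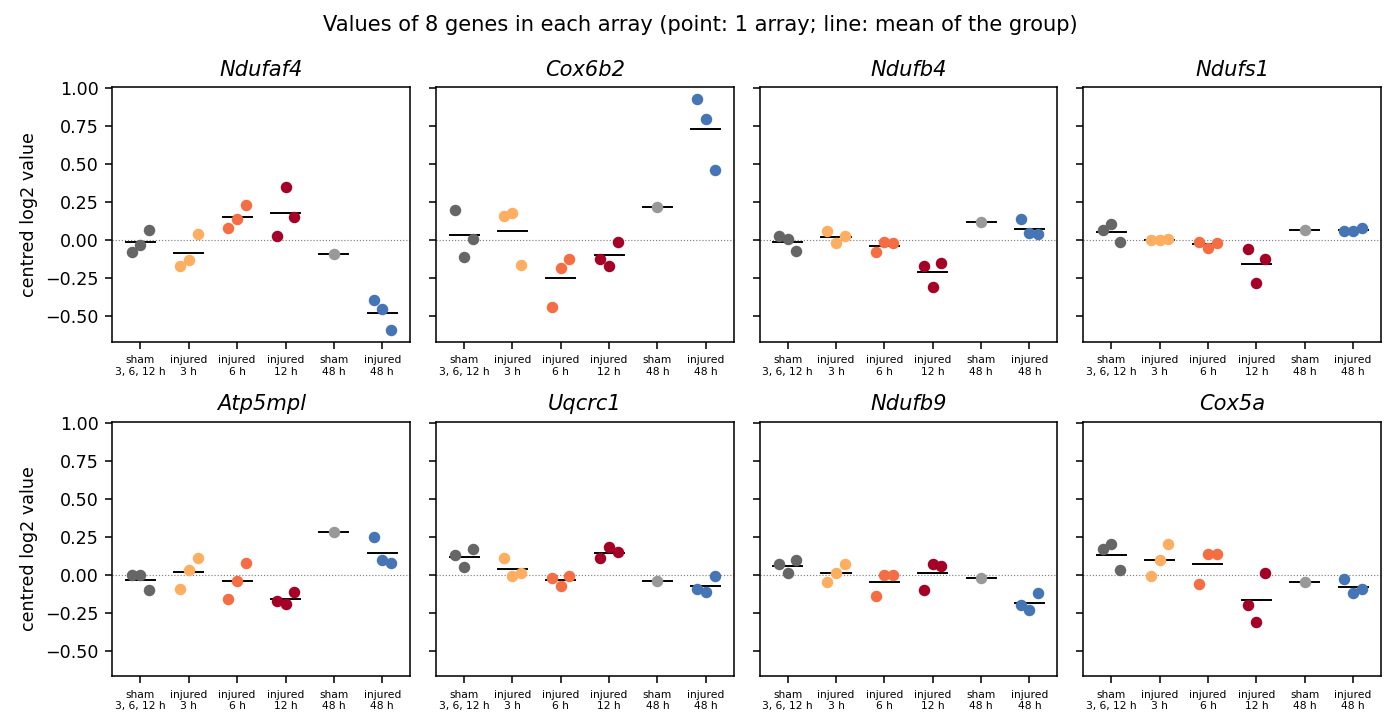
Centred log2 values (y axis) of 8 members in each array (points) by group (x axis), with the mean of each group as a line. Ndufaf4 lies between -0.59 and -0.39 in the 48 h injured arrays and Cox6b2 between 0.46 and 0.93, apart from all other arrays, while the 12 h arrays of Ndufb4 are its lowest.

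Complex II, succinate dehydrogenase, also serves in the citric acid cycle. All 4 genes were negative at 3 h and again at 12 h, with a median of -0.073 at 12 h, but only 1 of 4 at 48 h against the early shams, where the median was 0.036. Sdha, the flavoprotein subunit, had 0.08, 0.06 and 0.09 in the early shams and -0.01, -0.08 and -0.05 at 12 h, without overlap (-0.12 ± 0.06, SE; limma adjusted p = 0.302). It was the lowest of the complex over 3, 6 and 12 h (-0.091), and Sdhd, a membrane anchor, the least low (-0.017). Sdhb, the iron-sulfur subunit, differed by -0.09 at 12 h and 0.06 at 48 h. No gene of the complex was called.

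Complex III differed little in the first hours: 2 of its 7 genes were negative at 3 h, 3 at 6 h and 5 at 12 h, and its median at 12 h was -0.057. Against the 48 h sham all 7 were negative at 48 h, with a median of -0.157, but against the early shams 3 were, with a median of 0.003; the 48 h sham itself had a median of 0.082 for the complex. Uqcrc1, a core protein, had 0.13, 0.05 and 0.17 in the early shams, -0.02, -0.07 and -0.01 at 6 h and 0.11, 0.18 and 0.15 at 12 h. At 48 h it had -0.09, -0.11 and -0.01, below all early shams and close to the 48 h sham at -0.04. It fell from 12 to 48 h by 0.22 ± 0.06 (SE, limma adjusted p = 0.0328) and differed from the early shams by -0.19 ± 0.06 (limma adjusted p = 0.0769). Uqcrfs1, the Rieske iron-sulfur protein, was highest of the complex over 3, 6 and 12 h (0.060) and Uqcr11, a small subunit, lowest (-0.096).

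Complex IV, cytochrome c oxidase, held genes with differences of both signs. At 12 h 12 of 17 genes were negative with a median of -0.033, at 48 h against the early shams again 12 of 17 with a median of -0.060. Among its subunits of most tissues, Cox4i1 differed by -0.05 at 12 h, Cox6a1 by -0.02, Cox6b1 by -0.10 and Cox8a by -0.04, while Cox5b differed by 0.02 and Cox6c by 0.013. Cox5a, the subunit at the matrix side, had 0.17, 0.20 and 0.03 in the early shams and -0.20, -0.31 and 0.01 at 12 h, and had the largest negative 12 h difference of all members (-0.30 ± 0.09, SE; limma adjusted p = 0.0841), called only when injured 12 h array 3 was left out. A second probe set that lists Cox5a with another symbol, and so was not used, gave -0.027 for the same comparison.

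Several complex IV subunits have isoforms made in particular tissues. Cox6b2, best known as a testis isoform, had 0.20, -0.11 and 0.01 in the early shams, 0.16, 0.18 and -0.16 at 3 h, -0.44, -0.18 and -0.12 at 6 h, and -0.12, -0.17 and -0.01 at 12 h. The 48 h arrays held 0.93, 0.80 and 0.46, above every other array including the 48 h sham at 0.22. Cox6b2 rose at 48 h by 0.70 ± 0.13 against the early shams (SE, 1.62-fold, limma adjusted p = 0.00643) and by 0.83 ± 0.13 from 12 h (limma adjusted p = 0.0014), and both calls held in every alternative analysis run. Against the single 48 h sham the difference was 0.51 ± 0.19 (limma adjusted p = 0.545). Cox4i2, a hypoxia-responsive isoform, differed by -0.003 at 12 h and 0.13 at 48 h.

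Cox6a2, Cox7a1 and Cox8b are the isoforms of heart and skeletal muscle. Cox6a2, which had the highest mean over 3, 6 and 12 h of all members (0.21), had its highest value in the 48 h sham (0.63), and its early shams ran from -0.30 to -0.05. Cox8b had 1.53 in injured 3 h array 3 alone, with -0.08 and 0.08 in the other two 3 h arrays, and a standard error of 0.325. Cox7a1 differed by 0.06, -0.21, -0.13 and -0.11 at 3, 6, 12 and 48 h. None of these was called. Of 11 markers of skeletal and heart muscle, 6 were negative at 12 h with a median of -0.023, and 1 of the 11 was called at 48 h, beside 9.68% of all genes: Tnnc2, a fast-muscle troponin (-1.44 ± 0.32, SE; limma adjusted p = 0.0129).

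The ATP synthase also leaned below the early shams. Of its 16 genes 11 were negative at 3 h, 10 at 6 h, 14 at 12 h and 13 at 48 h against the early shams, with medians of -0.019, -0.007, -0.065 and -0.078. At 12 h, 6 of 16 had all injured arrays below all early shams and 0 above, beside 11.0% and 10.5% of all genes. Atp5f1a, the alpha subunit of the catalytic head, had 0.05, 0.03 and 0.08 in the early shams, and its 12 injured values ran from -0.09 to 0.01. It was therefore below all early shams at each of the 4 times, by -0.08, -0.07, -0.06 and -0.08 ± 0.06 (SE), and had the lowest mean of the complex over 3, 6 and 12 h, yet was called at none. Atp5f1b, the catalytic beta subunit, differed by 0.05 at 12 h and -0.09 at 48 h. Atp5if1, the inhibitor that stops the enzyme from hydrolysing ATP, had 0.017, 0.073 and 0.04 in the early shams and -0.17, -0.087 and -0.05 at 12 h (-0.15 ± 0.06, SE; limma adjusted p = 0.198).

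Atp5mpl, a small proteolipid bound to the synthase, had 0.00, 0.00 and -0.10 in the early shams, -0.17, -0.19 and -0.11 at 12 h and 0.25, 0.10 and 0.08 at 48 h. The 48 h sham held 0.28, the highest value of all. The gene rose from 12 to 48 h by 0.30 ± 0.08 (SE, limma adjusted p = 0.0225), a call that held in 9 of 14 alternative analyses and was lost without injured 12 h array 2 and without injured 48 h array 1. Atp5mf was the highest of the complex over 3, 6 and 12 h (0.040).

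**Figure D4:**
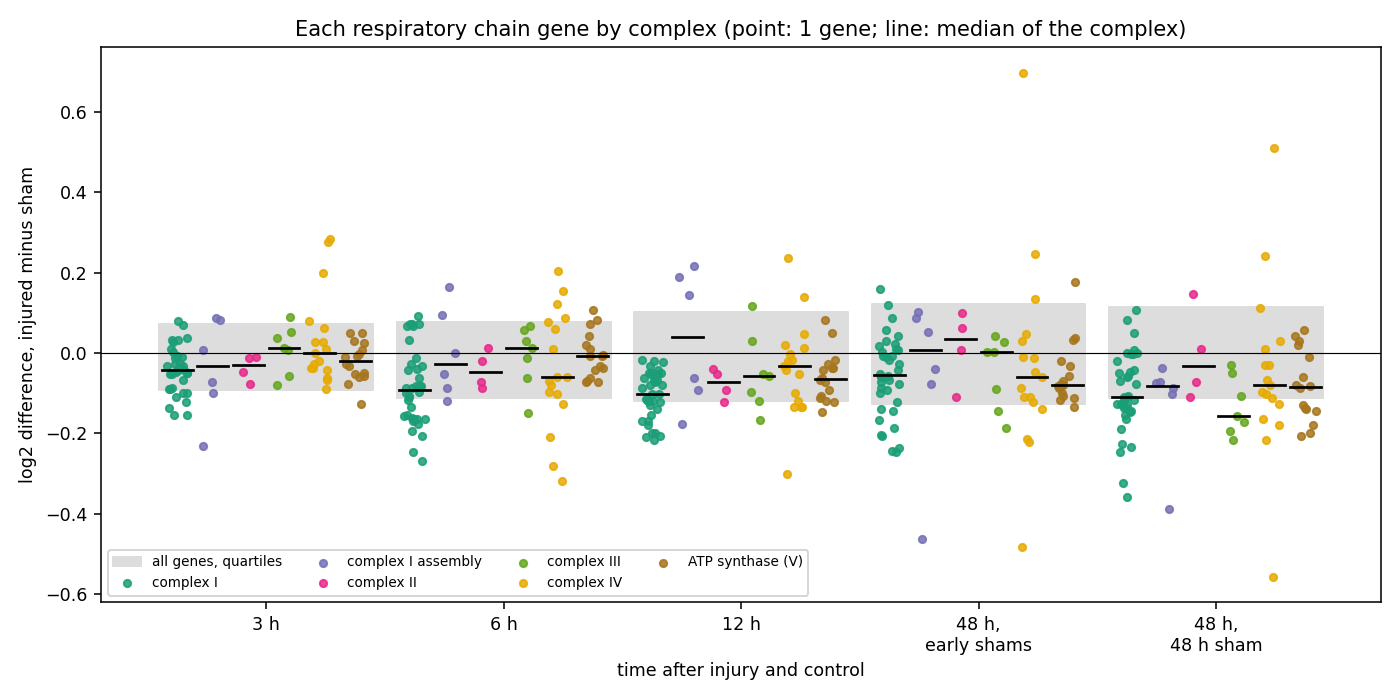
Log2 difference of each member (y axis, points coloured by complex) at 3, 6, 12 and 48 h against the early shams and at 48 h against the 48 h sham (x axis), with the median of each complex as a line and the quartiles of all 14218 genes as a grey band. At 12 h all 36 complex I points lie below 0, and at 48 h Cox6b2 (0.70) and Ndufaf4 (-0.46) stand out.

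In number, 3 of 86 members were called at 48 h against the early shams, Cox6b2 higher and Ndufaf4 and Ndufb9 lower. The share of all genes was 9.68%, above that of the members. Without any 1 of the early shams, injured 48 h array 1 or array 2 the count was 2, Cox6b2 and Ndufaf4, and without injured 48 h array 3 it was 4, with Ndufs3 added. From 12 to 48 h 7 members were called, where the share of all genes was 15.3%: Cox6b2, Ndufb4, Atp5mpl, Ndufs1 and Ndufa4l2 rose, and Ndufaf4 and Uqcrc1 fell. Without injured 12 h array 2 or without injured 48 h array 1 the count was 3, and Cox6b2, Ndufaf4 and Ndufb4 were the genes left. It was 4 without injured 12 h array 3 and without injured 48 h array 2, with Atp5mpl beside those 3. Ndufs1 was called in 5, Uqcrc1 in 6 and Ndufa4l2 in 5 of 14 alternative analyses. Against the 48 h sham no member was called, as for 0.0% of all genes, with 9 members (10.5%, against 7.46% of all genes) at an unadjusted p under 0.05. The 48 h sham against the early shams gave no member beside 0.00703% of all genes, with 4 members (4.65%, against 6.84%) at that level.

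Promoters of members are shown because members leaned one way at 12 h while Ndufaf4 and Cox6b2 moved apart at 48 h. RefSeq entries of build GRCr8 covered 78 of the 86 members, each with 250 bases before and 50 after the gene start. They were searched on both strands for short motifs of factors known to act on respiratory genes, written in capitals below. Ndufaf4 (chr5:43401545-43401844, plus strand) holds the NRF1 core GCATGCGC, on both strands with overlapping letters, and the Sp1 box GGGCGG. Ndufa6, an accessory subunit of complex I (chr7:115750268-115750567, minus strand), is shown as an example that holds all 4 motifs, adding the ETS core CCGGAAG and the YY1 core AAGATGGC. Cox6b2 (chr1:78122621-78122920, plus strand) holds none of these letters, which is also so for other members, among them Ndufb2, Sdha and Atp5mpl.
Ndufaf4: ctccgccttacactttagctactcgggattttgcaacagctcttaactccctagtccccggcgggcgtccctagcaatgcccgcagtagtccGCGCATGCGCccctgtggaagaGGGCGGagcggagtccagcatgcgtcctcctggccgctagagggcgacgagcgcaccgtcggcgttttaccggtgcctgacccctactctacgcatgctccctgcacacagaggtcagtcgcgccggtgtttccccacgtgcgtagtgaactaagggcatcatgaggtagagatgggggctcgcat
Ndufa6: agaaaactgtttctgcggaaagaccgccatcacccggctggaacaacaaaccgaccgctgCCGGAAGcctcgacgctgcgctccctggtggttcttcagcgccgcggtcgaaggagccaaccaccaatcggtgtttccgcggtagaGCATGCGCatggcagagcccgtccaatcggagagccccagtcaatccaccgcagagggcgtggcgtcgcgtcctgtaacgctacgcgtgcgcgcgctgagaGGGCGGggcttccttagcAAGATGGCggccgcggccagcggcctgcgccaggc
Cox6b2: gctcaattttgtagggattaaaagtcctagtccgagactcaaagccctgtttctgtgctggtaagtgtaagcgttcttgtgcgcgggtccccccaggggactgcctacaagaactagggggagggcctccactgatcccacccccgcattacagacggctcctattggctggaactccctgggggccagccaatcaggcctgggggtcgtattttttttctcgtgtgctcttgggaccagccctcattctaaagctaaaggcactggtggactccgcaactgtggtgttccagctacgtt

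Over the 78 promoters, AAGATGGC was found in 17 (21.8%, against 4.72% of 11701 promoters of genes on the array), CCGGAAG in 22 (28.2%, against 15.0%) and GCATGCGC in 9 (11.5%, against 4.29%). The Sp1 box was found in 34 (43.6%, against 57.5%). Of the 34 complex I promoters 9 held AAGATGGC, 7 CCGGAAG and 2 GCATGCGC. These are matches of letters and describe the genes, not their response.

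Other mitochondrial genes were taken from lists of the pathway. Of 16 enzymes of pyruvate and the citric acid cycle, 14 were negative at 12 h with a median of -0.071 and 0 were called, beside 4.87% of all genes. Of 43 assembly and copper factors of the chain that are not members, 34 were negative at 12 h with a median of -0.097 and 0 were called. At 48 h against the early shams 4 of the 43 were called, all lower. Of all 14218 genes 9.68% were called in either direction, 905 higher and 472 lower. Among the 4 were Surf1 (-0.36 ± 0.08, SE; limma adjusted p = 0.0121) and Cox10 (-0.32 ± 0.08; limma adjusted p = 0.0196), both needed to build complex IV. The mitochondrial ribosome had 49 of 73 genes negative at 12 h with a median of -0.033, and the cytosolic ribosome 17 of 51 with a median of 0.040.

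Of 18 regulators of mitochondrial biogenesis, 4 were negative at 12 h, 1 was called higher and 1 lower, beside 496 of the 14218 genes higher and 196 lower. Pprc1, a coactivator related to PGC-1 alpha, rose by 0.87 ± 0.10 at 12 h (SE, limma adjusted p = 0.000324) and Esrrg, an orphan receptor that drives oxidative genes, fell by 0.45 ± 0.11 (limma adjusted p = 0.0363). At 48 h against the early shams 7 of the 18 were negative, with a median of 0.012. Against the single 48 h sham 16 of the 18 were negative, with a median of -0.147. That sham itself had a median of 0.077 for the regulators against the early shams. In the 48 h comparison with the early shams 0 were called higher and 2 lower, beside 905 and 472 of the 14218 genes. Ppargc1a, which encodes PGC-1 alpha, was 1 of these 2 and fell by 0.54 ± 0.13 (limma adjusted p = 0.0229). Among 25 genes of glycolysis and the hypoxia response 3 were called higher at 12 h, against those same 496 of all genes, including the glycolytic activator Pfkfb3 (0.71 ± 0.15, SE; limma adjusted p = 0.0143) and the lactate exporter Slc16a3 (0.50 ± 0.11; limma adjusted p = 0.0175). Of 13 mitochondrial antioxidant and chaperone genes 5 were negative at 12 h, with a median of 0.009, and 1 was called, beside 4.87% of all genes. It was Sod2, the superoxide dismutase of the matrix, which rose by 1.12 ± 0.10 (limma adjusted p = 4.22e-05), a larger difference than that of any member.

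Markers of several cell types also differed between injured and sham arrays. Of 18 neuronal markers 17 were negative at 12 h with a median of -0.161, and all 18 at 48 h against the early shams with a median of -0.252. Against the single 48 h sham 14 of the 18 were negative at 48 h, with a median of -0.103. That sham had a median of -0.073 for these markers against the early shams. Camk2a, a kinase of excitatory neurons, fell by 0.69 ± 0.12 at 12 h (SE, limma adjusted p = 0.00541). By array, the median of the neuronal markers was -0.01, 0.05 and 0.00 in the early shams, -0.11, -0.22 and -0.12 at 12 h, and -0.33, -0.33 and 0.00 at 48 h. Of 9 microglial markers 6 were negative at 12 h, with a median of -0.597, and 0 at 48 h, with a median of 1.19, against the early shams. Of 7 neutrophil markers 0 were negative at 12 h, with a median of 1.36. Of 9 markers of monocytes and macrophages 0 were negative at 48 h against the early shams, with a median of 1.47. Against the single 48 h sham the 48 h medians were 0.643 for microglia and 0.51 for monocytes and macrophages. Of 10 markers of fibroblasts and meninges 9 were negative at 12 h, with a median of -0.713 and 4 called lower, among them Col1a2, a collagen (-1.56 ± 0.37, SE; limma adjusted p = 0.0256). By array their median was -0.38, 0.04 and 0.29 in the early shams and -0.47, -1.43 and -0.47 at 12 h. Of 8 endothelial markers 1 was called higher and 2 lower at 12 h, with a median of -0.225, and of 11 astrocyte markers 1 higher and 2 lower, with a median of -0.08. Over all 14218 genes, 496 were called higher and 196 lower at 12 h. Of 3 erythrocyte markers 1 was negative at 12 h, with a median of 0.02. Only 1 of the 3 was called, the haemoglobin gene Hbb, which rose by 2.53 ± 0.52 (SE, limma adjusted p = 0.0123). The 11 oligodendrocyte markers had a median of 0.027 and the 6 choroid plexus markers 0.207 at 12 h, with 0 called in either. The part of these cell types in the differences of the members was not tested.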

How the data were processed

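RNA of 16 arrays was analysed. The deposited log2 values are credited to RMA, a method that corrects, quantile normalizes and summarizes probes, in the submitters' processing notes; other steps are not given in the sources used here. The log base is not stated and was taken as 2. Each of 31099 probe sets has a median of 0 over the arrays, as the values show, so levels, detection and low-signal filters were not used.

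The 20832 probe sets with 1 gene symbol were averaged per gene (14218 genes), and 436 that list more than 1 symbol were dropped. Of these, 9 hold a symbol of the rule. All 16 arrays in 6 groups entered 1 model in limma 3.58.1 (R 4.3.3) with 10 residual degrees of freedom and Benjamini-Hochberg adjustment over all genes; intervals are 95%. The fit was tested on simulated data.

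Members, lists and alternatives were chosen with earlier results of these data known, so no test over a list is given. The 33 members named with values are those called, the highest and lowest of each complex over 3, 6 and 12 h, and a panel of known subunits; Ndufs3, Ndufb2, Ndufa6, Cox5b and Cox6c were added after their values were seen. Of other genes, at most 2 per list and direction are named. Alternatives were each probe set by itself, probe set suffixes, renormalization, centring, fewer groups, a replicate block, single shams, robust moderation and leaving out each array.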

Additional observations from a re-analysis of the deposited data

Results flagged for a closer look

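Members whose difference from the early shams was not the same at 12 h and at 48 h, by the test of the step between both times (limma, Benjamini-Hochberg adjusted p under 0.05), were singled out. The step was 0.83 for Cox6b2, -0.653 for Ndufaf4, 0.33 for Ndufa4l2, 0.30 for Atp5mpl, 0.287 for Ndufb4, 0.22 for Ndufs1 and -0.217 for Uqcrc1. Cox6b2 and Ndufaf4 were called at 48 h against the early shams as well, while Ndufb4, Ndufs1, Atp5mpl, Uqcrc1 and Ndufa4l2 were called against the early shams at neither time.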

How the results depend on the processing

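The median difference of the members stayed negative at 3, 6, 12 and 48 h against the early shams in every alternative run, but its size at 3, 6 and 48 h moved by over 1.5 times with 1 array left out. It ran from -0.039 to -0.006 at 3 h, from -0.075 to -0.031 at 6 h and from -0.068 to -0.031 at 48 h, with early sham 1 left out giving -0.006, -0.037 and -0.031; against the 3 h sham alone the 3 h median was -0.062 and against the 6 h sham alone the 6 h median was -0.037. The median over members of the centred values, taken in each array, had an SD of 0.039 between arrays of a group. This is a spread of single arrays, whereas the 3 h median of -0.027 compares groups of 3 arrays. At 12 h the median difference ran from -0.092 to -0.051 when 1 array was left out. It was -0.064 after renewed quantile normalization and -0.067 against the 12 h sham alone, with 69 members negative. Members called at 12 h numbered 0 to 1 when 1 array was left out: Ndufs1 without injured 12 h array 1 and Cox5a without array 3. The 7 calls from 12 to 48 h became 4 when every probe set was tested by itself, 3 after quantile normalization, 2 when the model held only those groups, and 3 to 7 when 1 array was left out; the cause was not tested. Correlations of the deviations of injured arrays do not settle whether replicate numbers pair them. They ran from -0.188 to 0.257 for same-numbered arrays and from -0.215 to 0.198 for the others. Between 12 and 48 h the same-numbered arrays had 0.089, 0.193 and 0.189, and the others -0.175 to -0.007. With a replicate block the count of calls from 12 to 48 h was 4. Cox6b2 and Ndufaf4 were called in each of 13 alternatives at 48 h and 14 for the step. The 3 arrays per group limit what can be called, and without levels, probe sets near background could not be told from bright ones.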

Other observations

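The 9 probe sets that carry a symbol of the rule beside other symbols were left out of every count above. They include 2 for Cycs, the electron carrier between complexes III and IV, which also list Cycs-like genes. Those 2 differed from the early shams by 0.07 and -0.023 at 12 h and by -0.123 and -0.167 at 48 h. From the single 48 h sham they differed by -0.25 and -0.33 at 48 h. Of the 9, 8 were negative at 12 h and 8 at 48 h against the early shams, and the 12 h differences ran from -0.147 to 0.07. The probe set of Uqcrb and a related gene, a complex III subunit, had all 12 h arrays below all early shams (-0.12).

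Other mitochondrial genes were called at 48 h against the early shams. Of 15 carriers of ATP, phosphate and shuttles, 1 was called higher and 1 lower, beside 905 and 472 of the 14218 genes. The uncoupling protein Ucp2 rose by 1.08 ± 0.21 (SE, limma adjusted p = 0.00751), and the aspartate-glutamate carrier Slc25a12 fell by 0.40 ± 0.10 (limma adjusted p = 0.0201). Of 6 kinases and phosphatases of pyruvate dehydrogenase, 2 were called, both lower, beside those same 472 of all genes. Pdk4, a kinase that inhibits pyruvate dehydrogenase, fell by 0.85 ± 0.22 (limma adjusted p = 0.0271). Pdp2, a phosphatase of the same enzyme, differed by -0.38 ± 0.10 (limma adjusted p = 0.0272). At the earlier time of 12 h, 1 of 73 mitochondrial ribosome genes was called, beside 4.87% of all genes. It was Mrps6, a protein of the small mitochondrial ribosomal subunit, which rose by 1.34 ± 0.19 (limma adjusted p = 0.00103). Of 51 genes of the cytosolic ribosome, 11 were called higher at 48 h and 0 lower, with a median of 0.207, where 905 of all 14218 genes were called higher and 472 lower.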
